A study of Rattus norvegicus with 62 samples.

Results

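Transcripts of 8 DNA repair genes, Mgmt, Mpg, Ogg1, Apex1, Parp1, Xrcc1, Lig1 and Msh6, were followed in rat liver through initiation with a chemical, promotion with phenobarbital and partial hepatectomy. The genes were chosen by symbol: of 31099 probe sets on the array, 10 carried one of these symbols alone, and they stand for 8 of the 14217 genes with such a probe set. Liver RNA came from males of the outbred Crj:CD(SD)IGS stock and was hybridised to 62 Affymetrix arrays. The initiators were diethylnitrosamine (DEN) at 30 mg/kg (DEN30/PB) or 3 mg/kg (DEN3/PB), thioacetamide at 45 mg/kg (TAA/PB), methapyrilene at 100 mg/kg (MP/PB) and acetaminophen at 1000 mg/kg (APAP/PB). Initiation lasted 1 or 2 weeks, and after a 2-week pause all of these rats drank 500 ppm phenobarbital (PB) for 6 weeks. Rats given only methylcellulose (MC), the vehicle of the initiators, went on to PB (MC/PB) or to plain water (MC/water), so MC/water is the one treatment without PB. Each rat lost part of its liver 1 week into promotion, which gave the 5w sample, and gave the 10w sample at the end. There were 4 rats each on DEN30/PB, APAP/PB, MC/PB and MC/water, and 5 each on DEN3/PB, TAA/PB and MP/PB. Every sample was thus taken after the initiator had been withdrawn, and each 10w liver had been through surgery.

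Diethylnitrosamine is turned by cytochrome P450 enzymes of hepatocytes into a species that ethylates DNA. Mgmt takes an alkyl group off the oxygen of guanine onto a cysteine of its own and is used up in doing so. Mpg and Ogg1 are DNA glycosylases that open base excision repair, Mpg at alkylated purines and Ogg1 at oxidised guanine. Apex1 then cuts the backbone at the site without a base, Parp1 binds the nick and makes chains of ADP-ribose, Xrcc1 is the scaffold that gathers the repair enzymes, and Lig1 seals the strand. Msh6 acts in mismatch repair, where it recognises mispairs, including those opposite alkylated guanine that Mgmt has missed.

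The stretch just before the transcription start is shown for Mgmt, Apex1 and Parp1. Mgmt had the highest differences from MC/PB among the members after diethylnitrosamine, none of which passed the test. The levels of Apex1 and Parp1 moved together over the arrays. All 8 genes matched a RefSeq promoter of build GRCr8. The windows run 250 bases up to the start, 5′ to 3′ on the gene's strand: chr1:201140582-201140831 for Mgmt, chr15:26617976-26618225 for Apex1 and chr13:94839234-94839483 for Parp1, each on the plus strand. Capitals mark the GC box, GGGCGG or its reverse complement.
Mgmt: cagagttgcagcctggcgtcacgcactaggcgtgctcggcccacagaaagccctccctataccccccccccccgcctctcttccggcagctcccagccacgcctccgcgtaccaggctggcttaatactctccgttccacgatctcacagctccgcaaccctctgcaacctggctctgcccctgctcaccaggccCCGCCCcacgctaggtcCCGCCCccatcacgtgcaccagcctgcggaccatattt
Parp1: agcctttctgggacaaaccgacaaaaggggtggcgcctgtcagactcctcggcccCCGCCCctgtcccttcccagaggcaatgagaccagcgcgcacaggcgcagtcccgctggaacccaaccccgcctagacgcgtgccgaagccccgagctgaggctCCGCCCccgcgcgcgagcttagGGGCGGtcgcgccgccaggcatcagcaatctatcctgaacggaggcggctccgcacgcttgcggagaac
Apex1: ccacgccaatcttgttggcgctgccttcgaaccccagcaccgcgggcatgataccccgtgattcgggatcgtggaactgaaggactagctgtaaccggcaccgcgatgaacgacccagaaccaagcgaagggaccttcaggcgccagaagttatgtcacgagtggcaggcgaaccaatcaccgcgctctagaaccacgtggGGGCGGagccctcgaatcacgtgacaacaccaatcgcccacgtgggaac
Parp1 had 3 GC boxes, Mgmt had 2 and Apex1 had 1, and 7 of the 8 members, all but Xrcc1, held at least 1, against 30.5% of 33469 rat promoter windows of that length. The Parp1 window was 68.8% G and C with 27 CpG pairs, the Mgmt window 66.4% with 17 and the Apex1 window 60.4% with 24, against medians over all windows of 51.2% and 5. CCAAT was found in Mpg, Msh6 and Apex1 and in 34.0% of all windows. On either strand, no member held the E2F letters TTTGGCGC or TTTCGCGC (0.6% of all windows), the nuclear receptor half-site AGGTCA (14.1%), TGACNNNGC of the antioxidant response element (10.1%) or TATAAA (12.9%). These are matches of letters only. None of the motifs searched contains another.

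The values are MAS5 signals, a brightness in arbitrary units, and their 2% trimmed mean lay between 500.23 and 500.27 on each array as deposited. Array medians lay between 99.3 and 125.7, and 49.9% to 54.8% of probe sets reached a signal of 100. For each gene the brighter probe set was used, and it reached 100 on all 62 arrays for all 8 members. The residuals of all genes split the arrays into a first set of 30 and a second set of 32, with 2 or 3 of each in every group. The labels do not name this split, though it follows the replicate number. Both samples of a rat always fell in the same set. The second set was lower than the first by 0.32 for Apex1, 0.29 for Parp1 and 0.23 for Msh6 on the log2 scale, and the other 5 members differed by at most 0.07. Both sets occur in every group. Values within each set are given beside some of the results and not beside all. Markers of hepatocytes were bright in every group, with summed signals between 304800 and 475300 over 9 of the 10 genes listed.

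The levels of the 8 members were compared across the 14 groups of treatment and week, with no span over all genes computed for reference. The mean log2 level, computed after adding 25 to each signal, spanned 0.22 for Ogg1, 0.30 for Mpg, 0.36 for Msh6, 0.36 for Xrcc1, 0.37 for Lig1 and 0.64 for Apex1. Mgmt spanned 0.77, with DEN3/PB at 5w highest (10.17 ± 0.43, SD, n = 5) and MP/PB at 5w lowest (9.41 ± 0.16, n = 5). The 4 groups given diethylnitrosamine held the top 4 places for Mgmt, though the 5w and 10w groups of a dose are the same rats. Parp1 spanned 1.09, and its 12 groups on PB, at 11.34 to 11.70, all stood above MC/water at 10w (10.74) and at 5w (10.62). When the 14 means of a gene were put in order, neighbours differed by more than the larger of their SDs once in all 8 genes: the gap of 0.60 between Parp1 in DEN30/PB at 5w and in MC/water at 10w.

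**Figure D1:**
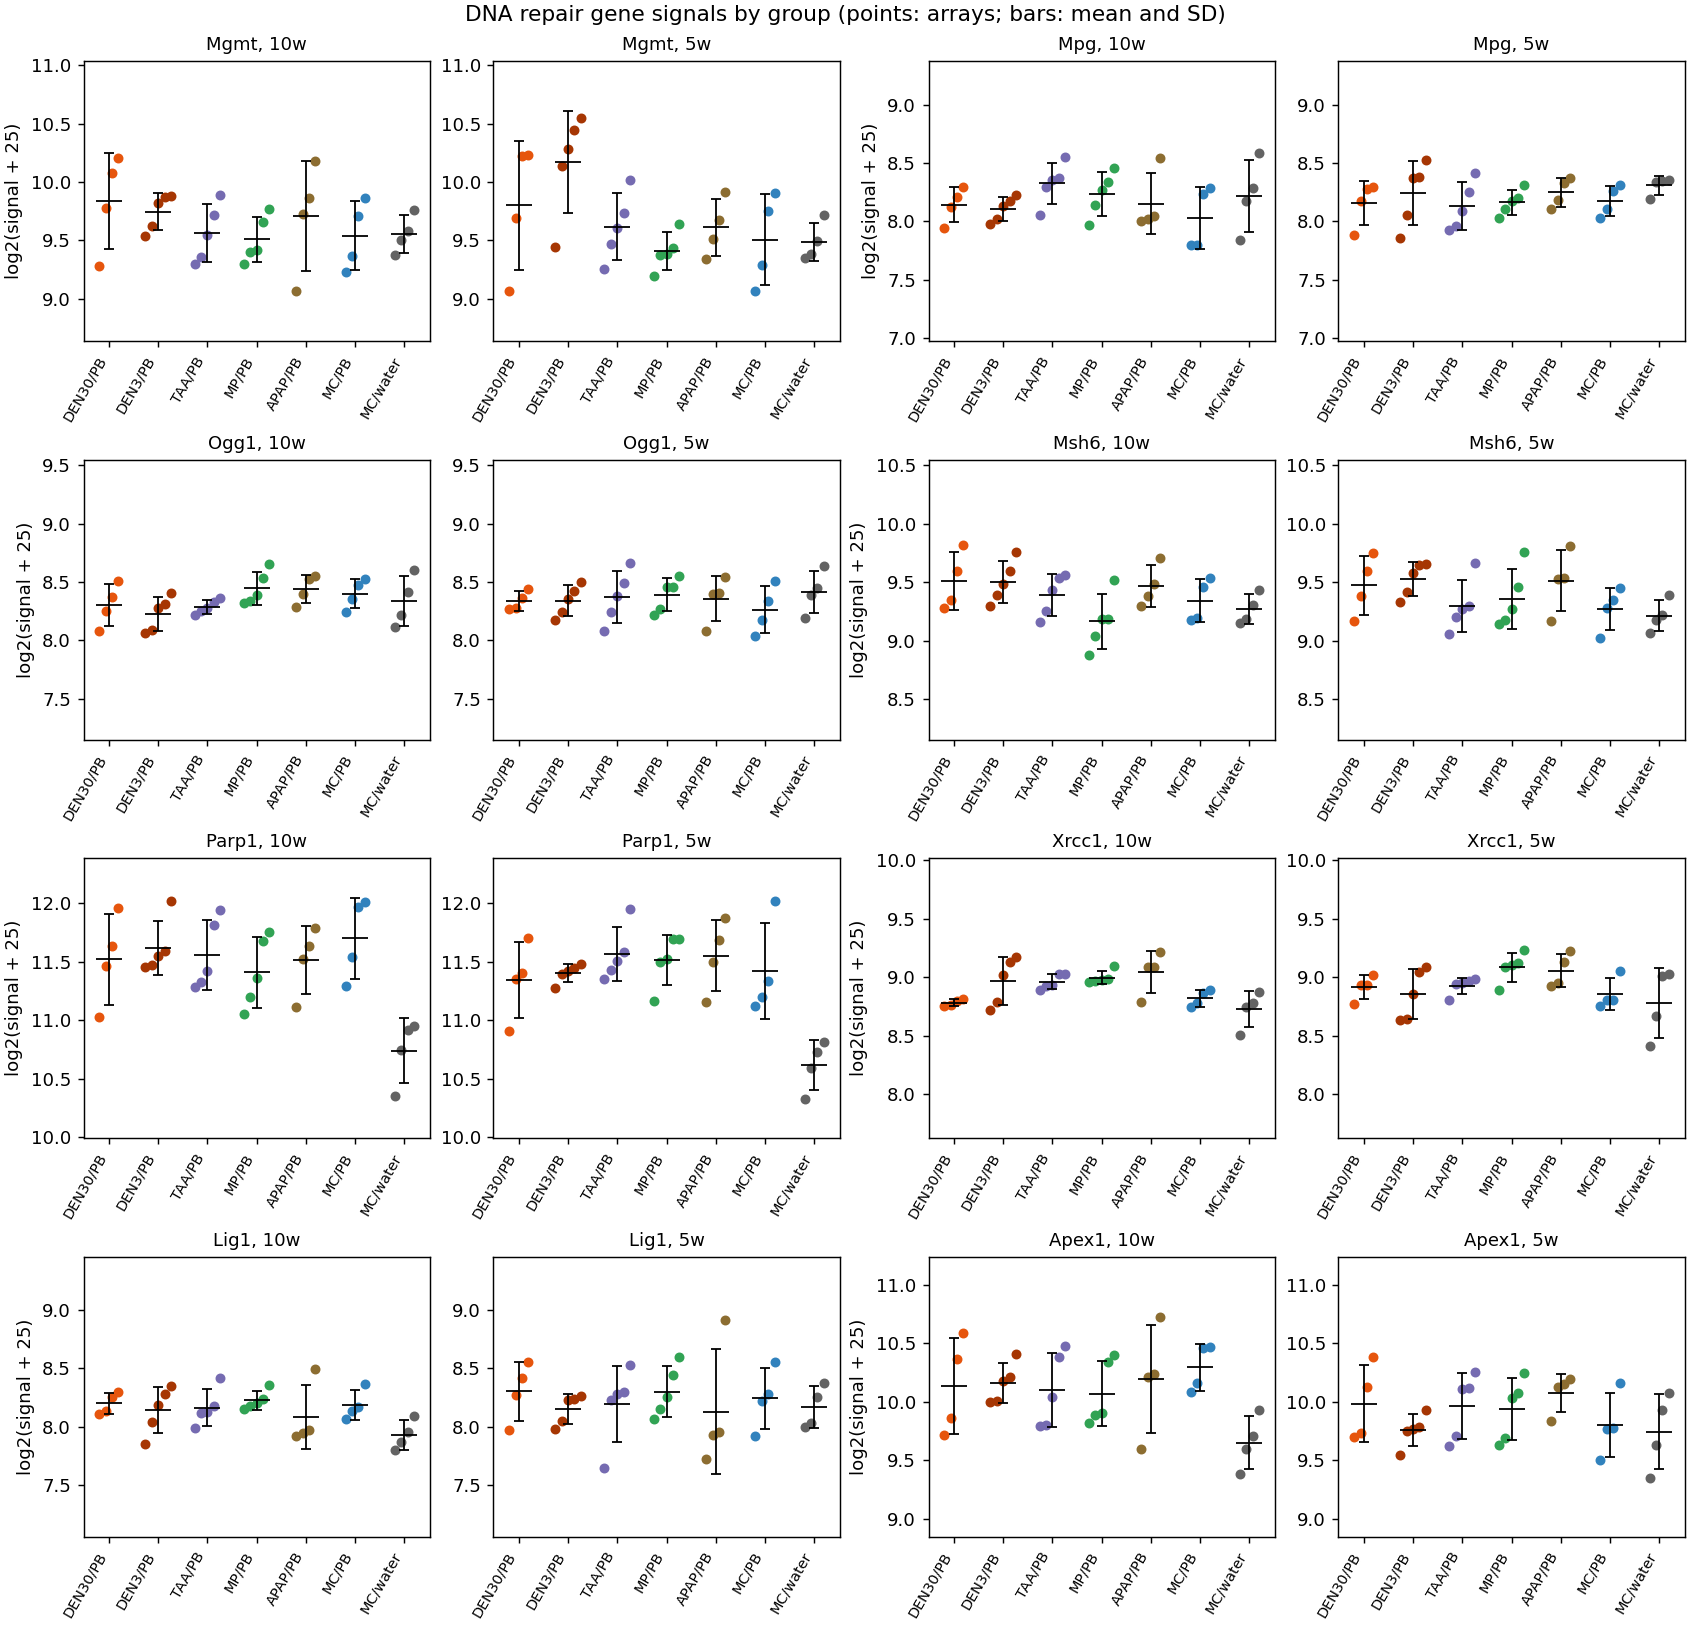
Level of each of the 8 repair genes, as log2 of the MAS5 signal plus 25 on the vertical axis, in the 7 treatments, with 10w on the left and 5w on the right of each pair of panels. Points are arrays and bars are the mean and SD; Parp1 in MC/water stands below all groups on PB, and the DEN3/PB arrays of Mgmt at 5w include the highest Mgmt value of all 62.

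No member passed limma's test after diethylnitrosamine at either dose or week, with p adjusted over all genes; among all genes, 0.0284% passed at 10w and 0.114% at 5w after 30 mg/kg, and 0.019% at 10w and 0.0381% at 5w after 3 mg/kg. Mgmt had the highest member difference in each of these 4 comparisons, which are not independent because a dose has the same rats at both weeks. Among the members it also had the largest SD left after subtracting group means, 0.32 on the log2 scale. At 10w the Mgmt signal was 1155, 596, 1052 and 854 in DEN30/PB, 717, 909.8, 918, 879 and 763 in DEN3/PB, and 573, 812, 905 and 633 in MC/PB. At 5w it was 1168, 510.4, 1176 and 803 in DEN30/PB, 672, 1367, 1468, 1223 and 1103 in DEN3/PB, and 512, 839, 931 and 602 in MC/PB. After 3 mg/kg, 4 of 5 rats stood above all 4 MC/PB rats at 5w, while the fifth lay inside their range, so the groups overlapped. That difference was 0.67 ± 0.21 (log2, SE; 95% interval 0.23 to 1.11), a 1.59-fold higher mean with an adjusted p of 0.496, and it ranked 86 of 10491 genes by its test. It was 0.56 in the first array set and 0.84 in the second.

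The other Mgmt values after diethylnitrosamine were smaller. They were 0.21 ± 0.18 at 10w after 3 mg/kg, and after 30 mg/kg 0.29 ± 0.19 at 10w and 0.30 ± 0.23 at 5w. After acetaminophen Mgmt stood at 0.17 ± 0.19 against MC/PB at 10w and 0.11 ± 0.23 at 5w. After thioacetamide it was 0.02 and 0.11, and after methapyrilene -0.03 and -0.10. In the 30 mg/kg group the 2 rats of the first array set carried the Mgmt value: it was 0.60 in that set and -0.01 in the second at 10w, and 0.74 and -0.14 at 5w. No difference between the doses was detected. Set against 3 mg/kg, Mgmt differed by 0.09 ± 0.18 at 10w (interval -0.29 to 0.46) and by -0.37 ± 0.21 at 5w (-0.81 to 0.07). The direction turned between the array sets, at 0.46 in the first and -0.31 in the second at 10w, and 0.18 and -0.98 at 5w. No member passed between the doses, where 0% of all genes passed at 10w and 0.00953% at 5w.

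Msh6, which acts on the mispairs Mgmt leaves, also had a pooled value above 0 in all 4 comparisons with MC/PB, again with the same rats at both weeks. It stood at 0.17 ± 0.14 at 10w and 0.20 ± 0.15 at 5w after 30 mg/kg, and at 0.16 ± 0.13 and 0.25 ± 0.14 after 3 mg/kg, with adjusted p of 0.969 or more. In the first array set these were 0.35, 0.31, 0.25 and 0.27, and in the second -0.01, 0.09, 0.02 and 0.19. Acetaminophen gave similar Msh6 values, 0.13 at 10w and 0.24 at 5w. Its 5w signal ran between 549 and 837 in DEN30/PB, between 618 and 780.0 in DEN3/PB and between 494 and 673 in MC/PB, so the groups overlapped. Of the glycosylases, Mpg lay between -0.02 and 0.12 and Ogg1 between -0.17 and 0.08. Of the later steps of base excision repair, Apex1 lay between -0.16 and 0.18, Parp1 between -0.18 and -0.01, Xrcc1 between -0.04 and 0.15 and Lig1 between -0.09 and 0.06. No member had groups that did not overlap in these 4 comparisons, which was the case for 3.24% of all genes at 10w and 3.67% at 5w after 30 mg/kg, and for 1.66% and 2% after 3 mg/kg. The median member differed from MC/PB by -0.01 and 0.07 at 10w and 5w after 30 mg/kg and by 0.02 and 0.03 after 3 mg/kg, against all-gene medians of 0.02, 0.01, 0.02 and 0.

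**Figure D2:**
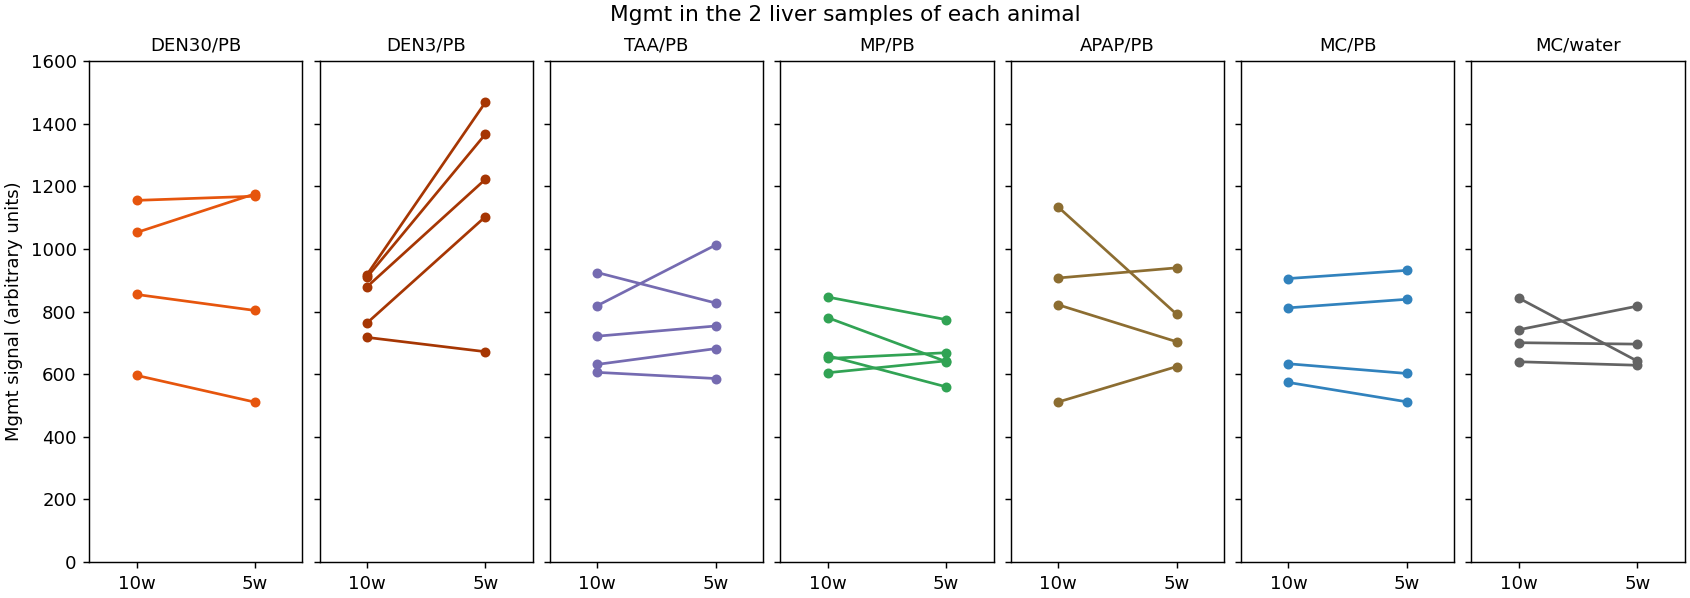
Mgmt signal (MAS5, arbitrary units, vertical axis from 0) in the 10w sample on the left and the 5w sample on the right of each of the 31 rats, with a line joining the samples of a rat and a panel per treatment. In DEN3/PB, 4 of 5 lines stand lower at 10w than at 5w, and in DEN30/PB the same rats are high or low at both weeks.

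Genes that p53 switches on did not pass after either dose. After 3 mg/kg at 5w, Cdkn1a, the p21 inhibitor of cell division, stood 1.02 ± 0.20 above MC/PB with an adjusted p of 0.0529, Mdm2, which marks p53 for destruction, 0.52 ± 0.12 (0.0935), and Ccng1, cyclin G1, 0.61 ± 0.15 (0.17). At 10w the same 3 genes stood at 0.03, 0.24 and 0.20. After 30 mg/kg Cdkn1a was at -0.62 ± 0.21 at 10w (adjusted p = 0.678) and 0.37 ± 0.22 at 5w (0.948), and Mdm2 and Ccng1 lay between 0.07 and 0.27. Gadd45a, also on the list, was at -0.79 ± 0.34 after 30 mg/kg and -0.51 ± 0.32 after 3 mg/kg at 5w. The median of the 14 p53 targets measured at 5w was 0.07 after 30 mg/kg and 0.12 after 3 mg/kg, against 0.01 and 0 for all genes. Gstp1, the glutathione transferase used as a marker of preneoplastic liver foci, rose by 2.65 ± 0.41 (adjusted p = 0.00498) at 10w and 1.58 ± 0.30 (0.0171) at 5w after 30 mg/kg, and was at 0.90 ± 0.39 (1) and 0.39 ± 0.28 (0.998) after 3 mg/kg. Pcna, the sliding clamp of replication and repair, lay between -0.02 and 0.21 in these 4 comparisons.

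Thioacetamide, a hepatotoxin that acts through oxidised metabolites, methapyrilene, an antihistamine that causes liver tumours in rats, and acetaminophen, toxic to liver at high dose, also left no member called. The shares of all genes called were 0.00948% at 10w and 0.0191% at 5w for thioacetamide, 0.0853% and 0.0572% for methapyrilene, and 0.0664% and 0% for acetaminophen. With diethylnitrosamine included, the 80 differences between an initiator and MC/PB ran between -0.29 and 0.67, and 1 of them exceeded 0.5 in size. Their 95% intervals reached at most 1.11 and at least -0.69. The unadjusted p fell below 0.05 in 2 of the 80, Mgmt after 3 mg/kg diethylnitrosamine at 5w and Xrcc1 after acetaminophen at 10w.

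Xrcc1, the scaffold, stood slightly above MC/PB in all 3 groups. At 10w its signal was 450.2, 463, 460.2, 497 and 497 in TAA/PB, 521, 475, 480.0, 472 and 478 in MP/PB, 568, 417, 519 and 518 in APAP/PB, and 441, 414, 449.6 and 403 in MC/PB. Every TAA/PB and MP/PB array stood above every MC/PB array, a separation found for 1.58% and 2.53% of all genes, while 1 APAP/PB array lay within the MC/PB range. The differences were 0.14 ± 0.10 (adjusted p = 0.999), 0.18 ± 0.10 (0.674) and 0.22 ± 0.10 (interval 0.01 to 0.43, adjusted p = 0.774). In the first and second array set they were 0.03 and 0.24 after thioacetamide, 0.16 and 0.21 after methapyrilene, and 0.27 and 0.18 after acetaminophen. At 5w the pooled differences were 0.07, 0.23 and 0.20, with overlapping groups. Mpg stood 0.30 ± 0.15 above MC/PB after thioacetamide at 10w, with an adjusted p of 0.999. Parp1 was lowest after methapyrilene at 10w, at -0.29 ± 0.19 (adjusted p = 0.725), with -0.51 in the first array set and -0.05 in the second. None of these passed after adjustment over all genes. Before it, the interval of Xrcc1 after acetaminophen at 10w lay above 0, at 0.01 to 0.43. With 4 or 5 rats a group, the other pooled differences given here could not be told from 0. All initiator comparisons share the 4 MC/PB arrays of their week.

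**Figure D3:**
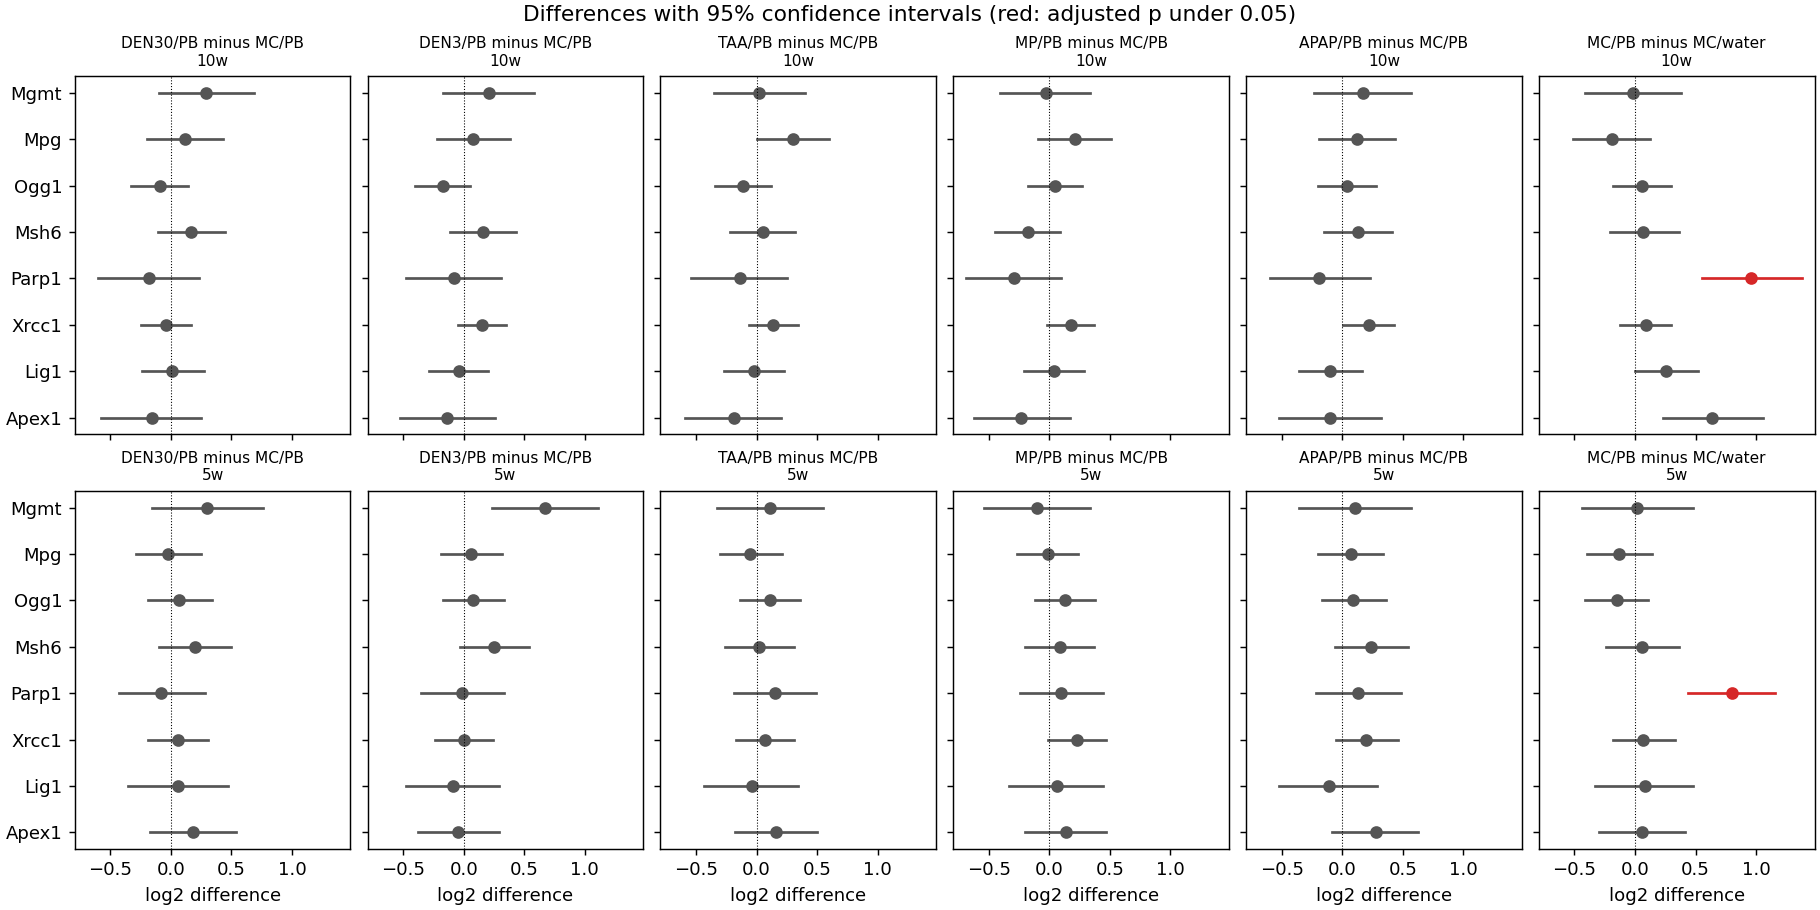
Difference in log2(signal + 25) for each member, listed on the vertical axis, with 10w in the row above 5w. Columns of panels are the 5 initiator groups minus MC/PB and then MC/PB minus MC/water. Points are limma estimates and bars their 95% intervals. Red marks an adjusted p under 0.05, which Parp1 alone reached, at both weeks of MC/PB minus MC/water.

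Phenobarbital was the treatment under which a member rose. Parp1 was 1.95-fold higher in MC/PB than in MC/water at 10w and 1.74-fold higher at 5w, and it was the only member of 8 called at either week, where 2.26% (238 of 10546) and 1.25% (131 of 10491) of all genes were. At 10w the Parp1 signal was 4104, 2479.6, 3973 and 2958 in MC/PB, against 1912, 1279.6, 1952 and 1686 in MC/water. At 5w it was 4130.4, 2197, 2555 and 2328 in MC/PB, against 1774, 1258, 1520.4 and 1673 in MC/water. No array of one group reached into the other at either week, as for 9.13% and 6.44% of all genes. The differences were 0.96 ± 0.20 (interval 0.55 to 1.38, adjusted p = 0.00587) and 0.80 ± 0.18 (0.44 to 1.16, 0.0121), and no difference between the weeks was detected (0.16 ± 0.28, adjusted p = 1). In whole liver, more of the cells that carry a transcript and more transcript per cell cannot be told apart.

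The 5 initiated groups also drank PB, and none was called against MC/PB for Parp1. They were set against the same 4 MC/water arrays of each week, and both weeks come from the same rats. This comparison is therefore not independent of the one above, and all of it rests on 4 MC/water rats. At 10w all 27 arrays on PB (2057 to 4128, median 2958) lay above all 4 MC/water arrays, whose highest was 1952, and at 5w all 27 (1896 to 4130) lay above the highest of 1774. Among all genes 1.03% at 10w and 0.639% at 5w showed this. For the other members, the arrays on PB above every MC/water array at 10w numbered 20 of 27 for Lig1, 19 for Apex1, 17 for Xrcc1, 13 for Msh6, 11 for Mgmt, 1 for Ogg1 and 0 for Mpg. At 5w they numbered 7 of 27 for Lig1, 11 for Apex1, 9 for Xrcc1, 13 for Msh6, 11 for Mgmt, 1 for Ogg1 and 5 for Mpg. How many of all genes reach such counts was not computed, so the counts alone cannot say whether these members shifted.

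Within the array sets the Parp1 difference under PB was 1.05 in the first and 0.87 in the second at 10w (adjusted p = 0.0602 and 0.237), and 0.97 and 0.63 at 5w (0.0945 and 0.33), with 2 arrays a group in each set. At 5w the call was lost without MC/PB rat 1 (0.60 ± 0.16, adjusted p = 0.106), without MC/water rat 2 (0.71 ± 0.19, 0.0582), or with only these 2 groups in the fit (0.80 ± 0.19, 0.0949). Epcam, a biliary and progenitor cell marker, rose with Parp1 under PB, by 1.26 at 10w and 0.80 at 5w. The other biliary markers measured did not pass: Spp1 was at -0.31 at 10w and -0.34 at 5w, and Krt19 at -0.27 and 0.16. The 3 biliary markers measured, of 6 listed, summed to 1339 to 2170 in MC/PB and 657 to 1140 in MC/water at 10w, and to 1068 to 1532 and 774 to 980 at 5w; the part of this in the Parp1 result was not tested. No hepatocyte, macrophage, lymphocyte, endothelial or stellate marker was called under PB.

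**Figure D4:**
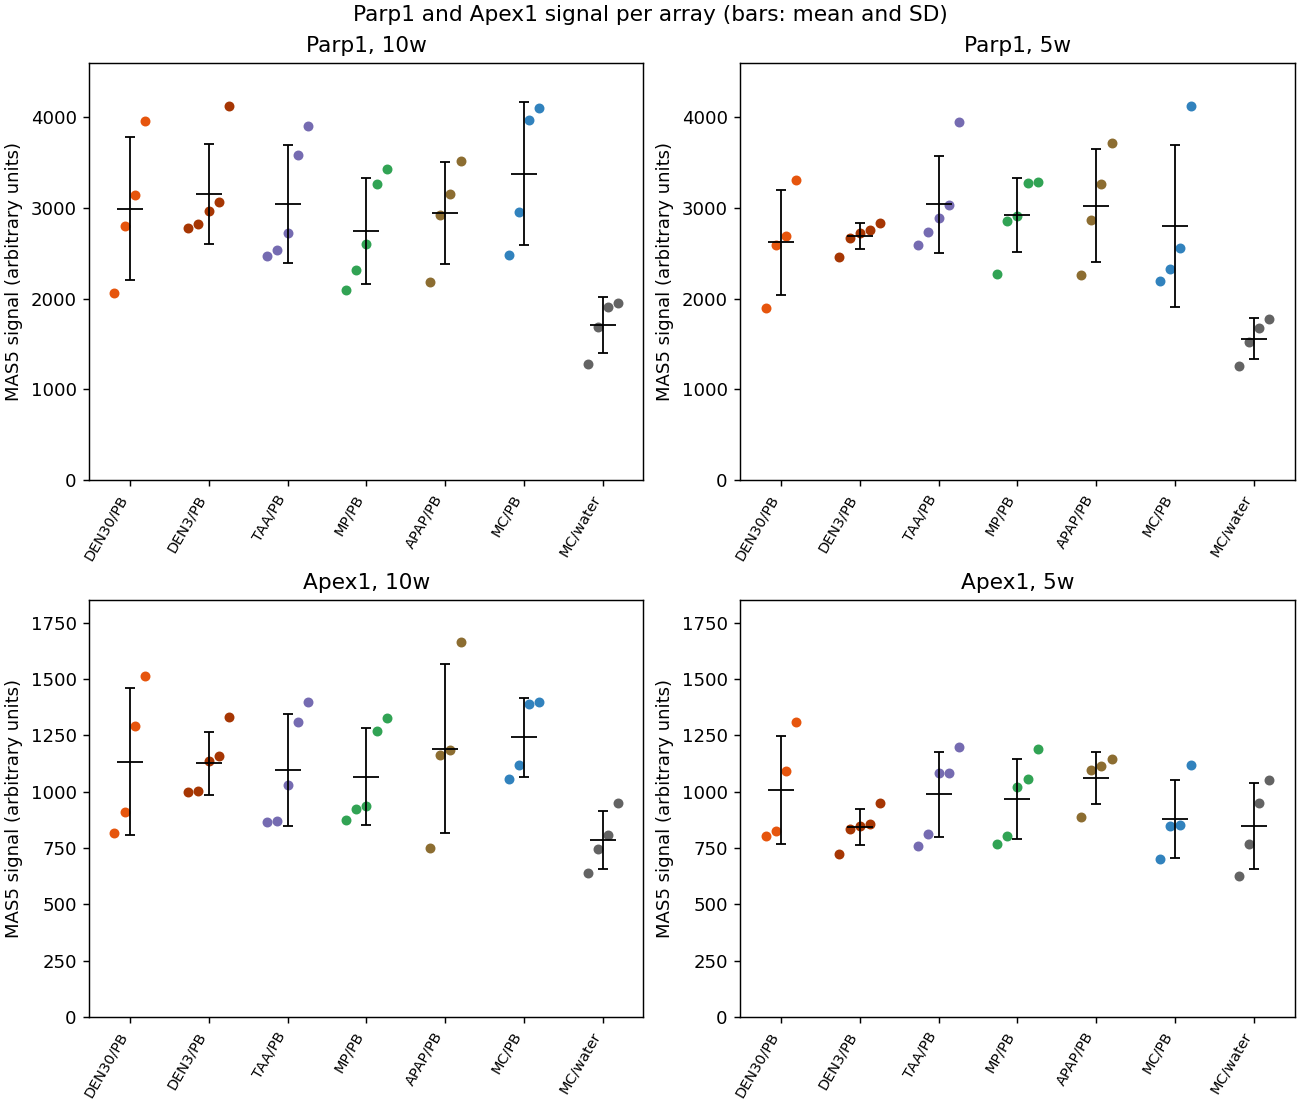
MAS5 signal (arbitrary units, vertical axis from 0) of Parp1 in the upper row and Apex1 in the lower row, at 10w on the left and 5w on the right, in the 7 treatments. Points are arrays and bars the mean and SD; Parp1 in MC/water, at 1280 to 1952 at 10w, lies below every group on PB, while Apex1 separates MC/PB from MC/water at 10w and not at 5w.

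Apex1, the nuclease that works just before Parp1, was higher under PB at 10w without passing the test. Its signal at 10w was 1397, 1058, 1388 and 1121 in MC/PB, against 810.0, 641, 949 and 747 in MC/water, with no overlap, as for 9.13% of all genes. The difference was 0.64 ± 0.20 (interval 0.23 to 1.06, 1.56-fold, adjusted p = 0.0911). It passed with the array set as a block (0.64 ± 0.18, adjusted p = 0.0371) and with only these 2 groups in the fit (0.64 ± 0.14, 0.041). At 5w the groups mixed, with 1119, 699.8, 847 and 852 in MC/PB and 1054, 626, 951 and 766 in MC/water, a difference of 0.06 ± 0.17. The 2 weeks differed by 0.59 ± 0.28 with an adjusted p of 1; with the rat as a block this was 0.59 ± 0.16 (0.198), and no interaction passed for any gene without the block, so 0% of genes were called for all 6 effects.

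The remaining members showed less under PB. Lig1, the ligase, stood 0.26 ± 0.13 higher at 10w and did not pass. Mgmt differed by -0.02 at 10w and 0.02 at 5w, so no difference in the alkyltransferase was detected between MC/PB and MC/water. Over all 8 members the median was 0.08 at 10w and 0.06 at 5w, against -0.01 and 0 for all genes.

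Each liver was sampled at both weeks, so a rat can be set against itself. Without using that, no member passed between 10w and 5w in any treatment; the shares of all genes called were 0% in DEN30/PB, 2.89% in DEN3/PB, 1.77% in TAA/PB, 1.34% in MP/PB, 1.47% in APAP/PB, 1.31% in MC/PB and 0.0458% in MC/water. With the rat as a block the shares were 2.14%, 10.6%, 7.2%, 6.46%, 7.28%, 6.07% and 1.32% in the same order, and 4 member values passed, 2 in DEN3/PB and 2 in MC/PB.

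Mgmt fell in DEN3/PB by 0.43 ± 0.10 (log2, interval -0.62 to -0.23, adjusted p = 0.00368 with the rat as a block, 0.274 without). It was lower at 10w in 4 of 5 rats, by up to 0.66, and 0.09 higher in rat 1, the rat with the lowest Mgmt at both weeks. Leaving out any one rat gave values between -0.55 and -0.37, with adjusted p between 0.000536 and 0.0323. Its change in the other 6 treatments lay between -0.05 and 0.10. The test that DEN3/PB changed unlike MC/PB gave -0.46 ± 0.15 with an adjusted p of 0.958, so the change was not shown to differ between them.

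Apex1 rose at 10w in DEN3/PB and MC/PB. In DEN3/PB its signal was 1137, 997, 1158, 1002 and 1333 at 10w, against 849, 722, 952, 836 and 856 at 5w, with all 5 rats higher. The change was 0.40 ± 0.10 (interval 0.20 to 0.61, adjusted p = 0.00741 with the rat as a block, 0.237 without); without rat 5 it was 0.35 ± 0.11 (0.0521). In MC/PB all 4 rats were higher, by 0.31 to 0.70, with a change of 0.49 ± 0.11 (0.27 to 0.72, adjusted p = 0.006 with the block, 0.259 without). The MC/PB call was lost without rat 2 (0.47, adjusted p = 0.057) or rat 3 (0.43, 0.0624). In MC/water 1 of 4 rats was higher and the change was -0.09 ± 0.11.

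Parp1 rose in MC/PB by 0.28 ± 0.09 (interval 0.11 to 0.46, adjusted p = 0.0473 with the block, 0.651 without), and it was higher at 10w in 3 of 4 rats. The Parp1 call was lost without rat 2 (0.32, adjusted p = 0.0933), rat 3 (0.17, 0.374) or rat 4 (0.27, 0.152). All 5 DEN3/PB rats (0.22 ± 0.08, adjusted p = 0.0742) and all 4 DEN30/PB rats (0.18 ± 0.09) also had higher Parp1 at 10w. So did all 4 MC/water rats (0.12 ± 0.09), which drank no PB. In the other treatments most rats were lower, with 1 of 5 higher in TAA/PB, 1 of 5 in MP/PB and 1 of 4 in APAP/PB. Markers of other cells moved between the weeks as well. In DEN3/PB the endothelial markers Lyve1 and Kdr were called lower at 10w of 5 measured of 7 listed, and their summed signal was 7315 to 9680 at 10w and 9474 to 12030 at 5w. In MC/PB Kdr was called lower, with sums of 7371 to 8757 at 10w and 9905 to 11570 at 5w. Their part in the changes of Mgmt, Apex1 and Parp1 was not tested.

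Mgmt, Msh6, Parp1 and Apex1 were high or low in the same rats at both weeks, more closely than most genes. After subtracting group means, the 10w deviation of a rat correlated with its 5w deviation over 31 rats with r = 0.81 for Parp1 (Spearman's rho 0.80), 0.77 for Mgmt (0.82), 0.73 for Msh6 (0.73) and 0.68 for Apex1 (0.70). The same measure was 0.16 for Xrcc1, 0.15 for Mpg, 0.01 for Lig1 and -0.29 for Ogg1, and its median over all genes was 0.31. Of all genes, 3.77% were at or above Parp1, 5.61% at or above Mgmt, 7.85% at or above Msh6 and 11% at or above Apex1. The samples of a rat share the animal and also the array set, which differs for 3 of these genes. Within the first set (15 rats) and the second (16 rats) r was 0.77 and 0.77 for Mgmt, 0.58 and 0.86 for Parp1, 0.68 and 0.42 for Msh6 and 0.30 and 0.64 for Apex1. Without the 2 rats farthest from the median at 5w, r was 0.80 for Parp1, 0.74 for Mgmt, 0.71 for Msh6 and 0.63 for Apex1. The same step moved Xrcc1 to 0.50, Mpg to 0.28, Lig1 to 0.10 and Ogg1 to -0.26. The low Pearson's r of Xrcc1 over all 31 rats thus depended on 2 rats, though Spearman's rho over all 31 was also low, at 0.14. With all rats kept, r for Xrcc1 was 0.25 in the first set and 0.02 in the second. The all-gene median of 0.31 is for all rats and does not compare with values after this step.

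**Figure D5:**
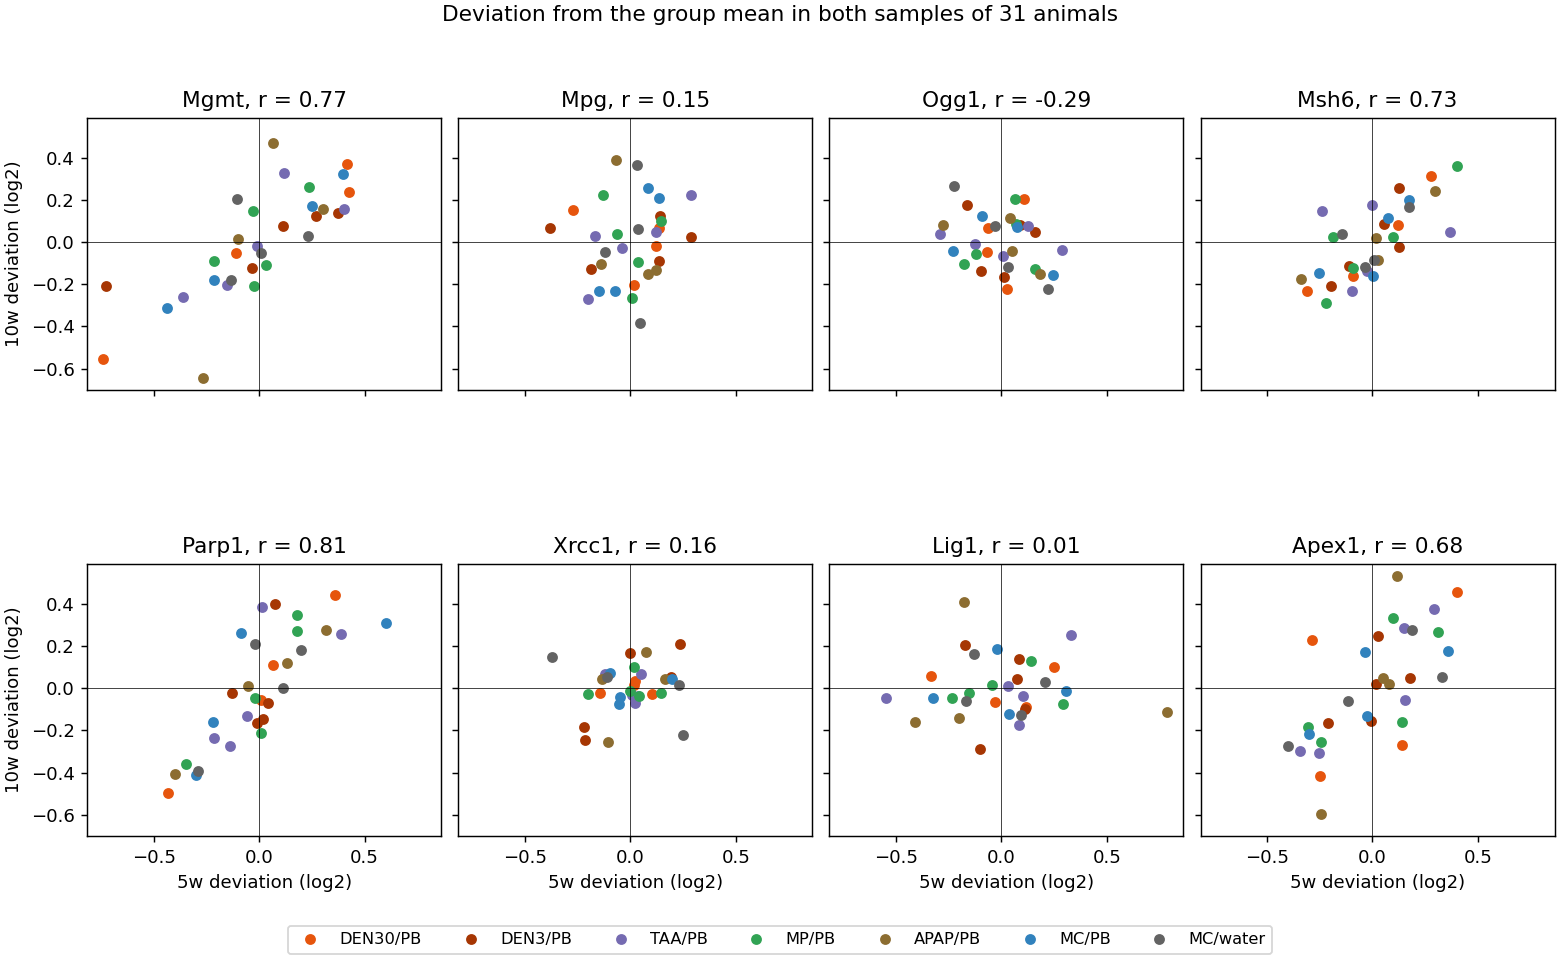
Deviation of each of 31 rats from its group mean in log2(signal + 25), at 5w on the horizontal and 10w on the vertical axis, with a panel per member, a colour per treatment and Pearson's r in each title. Points follow a rising line for Parp1 (r = 0.81), Mgmt (0.77), Msh6 (0.73) and Apex1 (0.68), and follow none for Mpg (0.15), Ogg1 (-0.29), Xrcc1 (0.16) and Lig1 (0.01).

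The spread left after the groups matched this split in part. The residual SD on the log2 scale was 0.32 for Mgmt, 0.29 for Parp1 and 0.28 for Apex1, above the all-gene median of 0.24. It was 0.23 for Lig1, 0.20 for Msh6, 0.19 for Mpg, 0.16 for Ogg1 and 0.15 for Xrcc1. Parp1 and Apex1 also moved together: their residuals correlated with r = 0.78 over 62 arrays, 0.75 within the first set and 0.60 within the second. Msh6 followed Parp1 (0.53) and Apex1 (0.46) over all arrays, but in the second set these were 0.10 and -0.12. Arrays of a rat are not independent, and the points share array set and scaling.

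The genes whose level over the 62 arrays was most like each member were found by Pearson's r, as a description over arrays that share rats and treatments. For Parp1 they were Por, the reductase that feeds electrons to cytochrome P450 enzymes (0.83, and 0.92 over the 14 group means), Ces2c, a carboxylesterase (0.81 and 0.98), and Gstm4, a glutathione transferase (0.81 and 0.96). For Apex1 they were Setsip (0.83 and 0.90), Eif5a, a translation factor (0.83 and 0.92), and Mrps18b, a mitochondrial ribosomal protein (0.80 and 0.88). For Msh6 they were Rora, a nuclear receptor (0.70 and 0.46), Usp9x, which removes ubiquitin (0.70 and 0.70), and Mycbp2 (0.67 and 0.72). For Mgmt they were Tmem47 (0.55 and 0.71), Ccng1, the p53-regulated cyclin G1 (0.49 and 0.82), and Trip13 (0.48 and 0.53). The genes most like Xrcc1 (Gstm2, Psmd9 and Dicer1), Lig1 (Ncapd3, Tsnax and Emc2), Mpg (Klf10, Dazap1 and Atp5f1d) and Ogg1 (C130050O18Rikl, Tmem41b and Mrpl18) reached r of 0.39 to 0.64.

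Few genes of the wider repair pathways were called. Of the 14 genes listed for the steps after base removal, 13 were measured, and Parp1 alone was called under PB at both weeks, with a list median of 0.09 at each week. Under PB, 0 genes were called of 4 measured for direct reversal, 7 of 11 listed for the glycosylases, 17 of 19 for nucleotide excision repair, and at 10w and 5w 14 and 13 of 20 for strand break repair and 24 and 23 of 26 for replication. Genes of p53 and division were called at 5w and not at 10w, though without the rat as a block no difference between the weeks passed for any gene (13 did with it): Fas, a death receptor, rose by 0.95, Gadd45a, a stress sensor, by 1.39 and Perp, a junction protein, by 0.46, of 14 p53 targets measured of 21 listed, and Kif11, a spindle motor, by 0.84 of 17 measured of 20. No gene of these repair, replication, cell cycle and p53 lists was called for any initiator against MC/PB. After 30 mg/kg diethylnitrosamine at 10w, however, 16 of 17 cell cycle genes were above 0, with a median of 0.70 and Plk1, a mitotic kinase, highest at 1.12, and 20 of 24 replication genes, with a median of 0.18 and Pole2, a polymerase subunit, highest at 0.79, against an all-gene median of 0.02. Between the weeks Plk2, a p53-regulated kinase, fell in DEN3/PB (by 0.57) and MC/PB (by 0.85), and Cdkn1a rose in MP/PB (0.93).

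Lig1 and Apex1 each had a second, dimmer probe set. That of Lig1 reached a signal of 100 on 28 of 62 arrays and that of Apex1 on 7. Under PB at 10w the dim sets gave -0.43 for Lig1 and -0.29 for Apex1. Their standard errors were 0.28 for Lig1 and 0.33 for Apex1, neither passed, and most of these signals lay under the minimum, so their sign bears no weight.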

How the data were processed

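The authors deposited an intensity for each probe set, the linear signal of MAS5 5.0 according to the submitters' processing notes. The array model and scaling target were not given in the sources used here. Of 31099 probe sets, 57 were controls, 20826 had 1 symbol, 436 several and 9780 none, and 20758 symbols matched the RefSeq table by gene identifier. An offset of 25 was added before log2. A probe set was kept if it reached 100 on at least 4 arrays of the fit, and the probe set with the highest mean stood for its gene, so that 10546 genes were tested at 10w, 10491 at 5w and 10910 over both weeks. The 27 comparisons were contrasts in limma 3.58.1 (R 4.3.3; eBayes with trend), two-sided, with Benjamini-Hochberg adjustment over all genes tested and a threshold of 0.05. Comparisons within a week used its 31 arrays, and those involving time all 62. A fold is on the log2(signal + 25) scale and slightly understates changes of dim genes. The number of arrays limits the precision. Scripts were tested on simulated data.

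Replicates are separate rats per the labels, which also state that the 5w and 10w livers are of the same rats. As a check, residuals of the 31 pairs with the same treatment and number correlated at 0.21 to 0.392, and all 31 correlated best with their own number, so the rat was used as a block (a fixed term per rat) for comparisons between weeks. Its value is given where it changed a call. The 8 members and the gene lists were chosen with earlier results of these data known. Named by rule were the members, up to 4 called genes of each list, Cdkn1a, Mdm2, Ccng1, Pcna and Gstp1 among fixed context genes, and the 3 genes most like each member. Each result was recomputed within each array set, with the array set or the replicate number as a block, with only the groups compared, without the offset, without the filter, after quantile normalization, with every probe set tested, and without each array in turn. The array sets are the 2 signs of the first principal component of the residuals (11.8% of their variance). They follow the replicate number: in every group, numbers 1 and 3 fell in the first set and numbers 2 and 4 in the second. Number 5 fell in the first set in DEN3/PB and in the second in TAA/PB and MP/PB. The labels do not say why. Leaving out each rat under the rat block was added after seeing the data.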

Additional observations from a re-analysis of the deposited data

Results flagged for a closer look

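In 7 of 112 groups of a gene, treatment and week, 1 array stood apart from the others by Dixon's test at the 95% level; chance alone gives about 1 in 20. Levels here are log2(signal + 25). Parp1 in DEN3/PB at 10w had rat 5 at 12.02 (signal 4128) and the others at 11.45 to 11.60 (2780 to 3069). Mpg in APAP/PB at 10w had rat 4 at 8.54 (348) and the others at 8.05 or lower (231 to 239), and Mpg in MC/water at 5w had rat 2 at 8.19 (267) and the others at 8.34 to 8.36 (299 to 303). Xrcc1 in MP/PB at 10w had rat 1 at 9.09 (521) and the others at 8.96 to 8.98. Xrcc1 in TAA/PB at 5w had rat 5 at 8.81 (423) and the others at 8.94 to 8.98, and Xrcc1 in MC/PB at 5w had rat 1 at 9.05 (506) and the others at 8.76 to 8.80. Lig1 in APAP/PB at 10w had rat 3 at 8.49 (334) and the others at 7.92 to 7.97 (218 to 225).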

How the results depend on the processing

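Of 216 member results, 2 were called, Parp1 under PB at each week. Their 34 alternative values all stayed positive, 27 past the threshold and 7 not. Why the 7 missed it was not tested. At 10w the 2 that missed it were the first array set alone (1.05) and the second alone (0.87), each leaving 0 members called. At 5w they were the first set (0.97), the second (0.63) and only the groups compared (0.80), each with 0 members called, and 2 rats left out as given above. Leaving out each rat gave Parp1 values of 0.83 to 1.10 at 10w and 0.60 to 0.90 at 5w, and member counts of 1 at 10w and 0 to 1 at 5w.

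At 10w under PB, 2 members passed with the replicate block, with the array set as a block and with only the groups compared, the second being Apex1 (0.64, adjusted p = 0.0223 with the replicate block). The array set follows the replicate number, so the replicate block and the array set block are not separate support. Within a week the number names different rats: same-numbered MC/PB and MC/water arrays correlated at 0.07 to 0.096 at 10w, so the numbers pair no samples there; at 5w 3 of 4 such pairs exceeded 0.1. All 4 pairs did so in 4 of the 14 comparisons within a week (DEN30/PB, DEN3/PB at 5w and MP/PB, APAP/PB at 10w, each against MC/PB), where the block changed no member call. With the rat as a block between weeks, 2 members passed in DEN3/PB and 2 in MC/PB, and the block changed no other member call. Of 214 results not called, 209 were never called; 124 changed sign in some alternative, the largest being 0.37.

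Counts over all genes moved more. For PB they were 238 at 10w, with alternatives between 36 (second array set) and 392 (replicate block) and at least 141 with 1 rat left out (MC/PB rat 1), and 131 at 5w, between 18 (first set) and 168, with 65 without MC/PB rat 1. Between weeks, counts of 0 to 315 became 144 to 1158 with the rat as a block and 0 to 14 at the lowest within 1 set. For the 5 initiators against MC/PB, counts of 0 to 12 ran between 0 and 15. With 4 or 5 rats a group, the standard errors of member differences against MC/PB were 0.10 to 0.23.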
